A study of Homo sapiens with 12 samples.

Results

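The comparison described here set wild-type Panc1 against wild-type MiaPaCa2, a pair of established human cell lines derived from pancreatic ductal adenocarcinoma, the cancer of the pancreatic duct. The series profiled both lines by RNA sequencing of cultured cells, wild-type or with a knockout of ASAP2, in 12 libraries, with 3 libraries in each of the 4 groups. The 6 wild-type libraries, Panc1_WT and MiaPaCa2_WT replicates 1 to 3, gave the comparison, and the 6 ASAP2 knockout libraries of the same lines were read only as a separate measurement of the same line difference. ASAP2 encodes an Arf GTPase-activating protein that acts on membrane traffic and focal adhesions. A gene was kept where its mean level was at least 1 FPKM (fragments per kilobase of transcript, scaled to the library's mapped fragments) in either wild-type line, which held for 13248 of the 22650 gene symbols listed in any library. At that threshold PDE4B was the lowest member, with a larger mean of 1 FPKM, and MIR6728 lay just outside at 0.999 FPKM. The labels do not tell how the knockouts were made, nor if libraries with the same label are separate cultures. The p-values therefore describe variation among these libraries only, which may be technical.

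Pancreatic duct cells are epithelial: they express simple keratins, cadherin junctions and tight junctions, and they develop from a progenitor field set by transcription factors of the FOXA, GATA, PDX, SOX and HNF families. Tumours of the duct are often sorted into a classical program that keeps secretory epithelial genes and a basal-like program with squamous features. Panc1 and MiaPaCa2 are both commonly used as poorly differentiated models, so each can be read against the same duct origin through its matrix receptors, its metabolism, its innate immune state and its growth factor signalling.

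All values below are FPKM, which is scaled by transcript length, so that levels of different genes can be set side by side. Differences are Panc1 minus MiaPaCa2 on the log2(FPKM + 1) scale, so a positive value is higher in Panc1 and a negative value is higher in MiaPaCa2, and the added 1 understates the change of genes at low level. A gene is called here when limma's moderated test gave an adjusted p (Benjamini-Hochberg over the 13248 genes) below 0.05, and called 2-fold when the difference was also at least 1 or at most -1. Errors after ± are SD over 3 libraries, and a gene that a library's file does not list was taken as 0.

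The 3 libraries of each line agreed closely, with correlations of log2 values across genes between 0.995 and 0.997 within a line and between 0.798 and 0.808 across the lines. FPKM summed to between 360765 and 365204 per Panc1 library and between 384118 and 392610 per MiaPaCa2 library. The read depth is unknown, since low values did not resolve into whole reads. Replicate 1 of each line listed low levels of the other line's genes. Over 19 genes at 20 FPKM or more in each MiaPaCa2 knockout library and below 0.5 FPKM in each Panc1 knockout library, the median level in wild-type Panc1 was 1.97% of that in wild-type MiaPaCa2 in replicate 1, against 0.229% and 0.295% in replicates 2 and 3. Over the 69 genes chosen the same way for Panc1, wild-type MiaPaCa2 replicate 1 stood at 0.308% of the Panc1 level, against 0.0479% and 0.0801% in the other two libraries. The source of these low levels was not tested, and values below are given per library where they matter. ASAP2 itself measured 38.6, 37.5 and 34.6 in wild-type Panc1 and 13.2, 13.6 and 13.8 in wild-type MiaPaCa2, with means of 13.8 and 12.3 in the knockout libraries. Transcript level alone does not show whether a knockout removed the protein.

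Markers of the duct epithelium were present in part. Of 12 duct and epithelial markers, 9 in Panc1 and 7 in MiaPaCa2 averaged 1 FPKM or more, and their summed level was 1681 to 1725 FPKM in Panc1 and 1316 to 1370 in MiaPaCa2, most of it from KRT8, KRT18 and KRT19. CFTR, the chloride channel of ducts, was at 0 in all 6 libraries, and CDH1, the epithelial cadherin, stayed below 0.4 in both lines. EPCAM was at 3.02, 2.59 and 2.29 in Panc1 and at 0 in MiaPaCa2. Acinar, endocrine and endothelial markers were near 0: the summed level of 6 acinar markers did not exceed 1.30, that of 5 islet markers 0.042, and that of 5 endothelial markers 0.2. Of 7 fibroblast markers, COL1A1 alone exceeded 1 FPKM in Panc1 and COL1A2 alone in MiaPaCa2. Of 7 leukocyte markers, the lysosomal protein gene CD68 carried the sum, at 175 ± 4.23 in Panc1 and 26.7 ± 1.5 in MiaPaCa2, and PTPRC, the pan-leukocyte phosphatase, was at or near 0.

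The lines differed at most expressed genes. Of the 13248 genes, 11168 (84.3%) were called, 5653 (42.7%) higher in Panc1 and 5515 (41.6%) higher in MiaPaCa2, and the groups did not overlap for 11272 (85.1%). The 2-fold call was met by 1989 genes (15%) higher in Panc1 and 1366 (10.3%) higher in MiaPaCa2, and a 4-fold difference by 723 and 278. The median difference over all tested genes was 0.01, with quartiles of -0.50 and 0.58. In the knockout libraries 1895 genes (14.3%) met the same 2-fold call for Panc1 and 1790 (13.5%) for MiaPaCa2. Of the 2-fold genes of wild-type Panc1, 1557 (78.3%) were also called for Panc1 between the knockouts, which is 82.2% of the knockout list, and 1 was called for MiaPaCa2. For MiaPaCa2, 1069 (78.3%, and 59.7% of the knockout list) were shared and 1 was opposite. Because so many genes differed, counts of called genes in a list are read against these shares, and a count near them is not a result about the list. The lists and their members were chosen with earlier results of these data known. The 3 libraries of 1 line did not overlap those of the other for any gene given below as higher in a line. In bulk RNA, fewer expressing cells and less RNA per cell cannot be told apart.

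**Figure D1:**
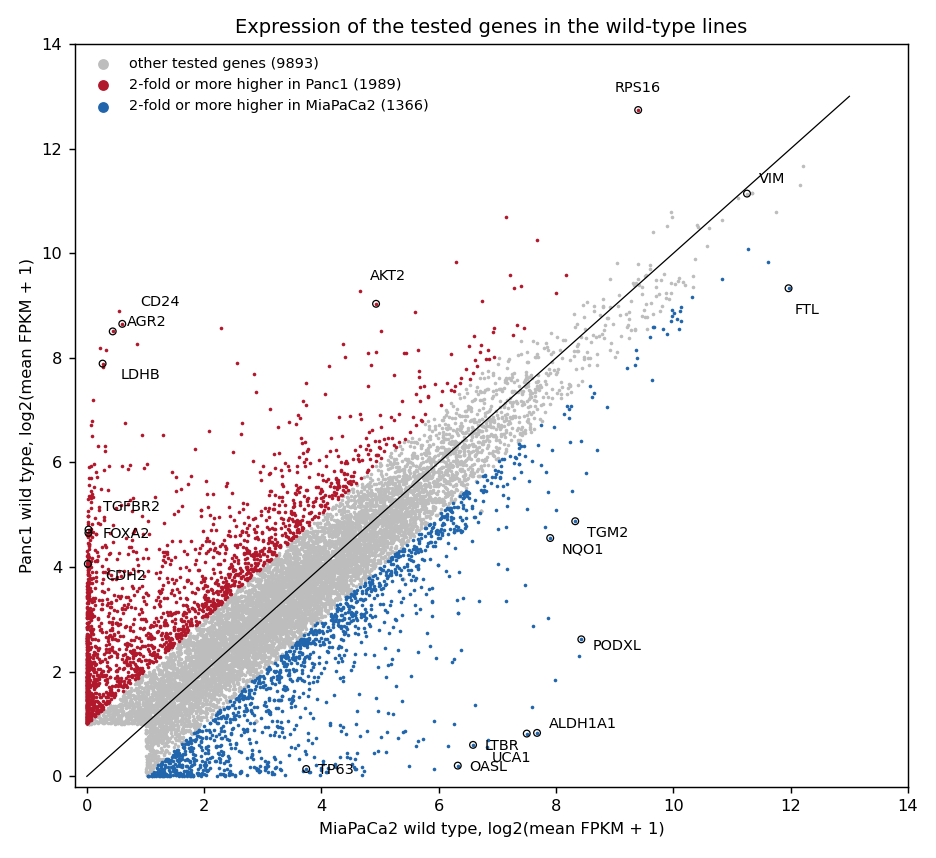
Mean level of each of the 13248 tested genes in wild-type MiaPaCa2 (horizontal) and wild-type Panc1 (vertical), both as log2(FPKM + 1), with 2-fold genes in red (1989, Panc1) and blue (1366, MiaPaCa2). Circled genes are named in the text, and a dense column of genes lies on each axis, at or near 0 in 1 line.

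Lineage factors split between the lines. FOXA2, a pioneer factor of endoderm, measured 23.6, 22.9 and 26.1 in the Panc1 libraries and 0.057, 0 and 0 in the MiaPaCa2 libraries, a difference of 4.63 (SE 0.06, limma adjusted p = 2.62e-10). All 3 Panc1 libraries were above 20 FPKM and every MiaPaCa2 library below 0.1. ONECUT3, a liver and pancreas progenitor factor, had the same order, with 11.6, 9.57 and 10.2 against 0.002, 0.032 and 0. GATA6, a factor of the classical program, and PDX1, a factor of pancreatic identity, were low but also higher in Panc1, at 1.42 ± 0.0847 against 0.075 ± 0.00624 and 1.28 ± 0.044 against 0.085 ± 0.0546. In the other direction PAX6, an islet and eye factor, measured 8.14, 8.39 and 8.66 in MiaPaCa2 and 0.12, 0.141 and 0.126 in Panc1 (difference -3.06, adjusted p = 6.11e-10 by limma). MNX1, a factor of the pancreatic bud and of motor neurons, was higher in MiaPaCa2 by the same sign (-2.23), as was ONECUT2 (-2.07). SOX9, the duct and progenitor factor, was abundant in both lines, at 41.01 ± 1.26 and 61.4 ± 5.75, and HNF4A, a hepatic and pancreatic factor, was at or near 0 in both. Of 35 pancreatic transcription factors, 13 were tested, with 5 called 2-fold for Panc1 and 4 for MiaPaCa2.

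Few genes of the classical and basal-like tumour programs were expressed, and they differed in both directions. AGR2, a disulfide isomerase of mucus-secreting cells, measured 363, 372 and 352 in Panc1 and 1.07, 0 and 0 in MiaPaCa2. CD24, a mucin-type surface glycoprotein outside the lists of both programs, measured 392, 396 and 414 in Panc1 and 0.933, 0.306 and 0.321 in MiaPaCa2. The only MiaPaCa2 library with AGR2 above 0 was replicate 1. CD24 has near-identical copies in the genome, so its value may include them. TP63, the regulator of squamous and basal epithelium, measured 13.96, 11.2 and 11.9 in MiaPaCa2 and 0.289, 0 and 0.018 in Panc1 (difference -3.60), and UCA1, a long non-coding RNA first described in urothelial cancer, 203, 168 and 169 and 2.21, 0.02 and 0.06 (-6.90). LYZ, the gene of lysozyme, was the 1 tested classical gene higher in MiaPaCa2, at 38.2, 22.9 and 24.9. Most genes of both subtype programs were below 1 FPKM in both lines. Of 27 classical genes, 3 were tested, 2 of them higher in Panc1 and 1 in MiaPaCa2, and of 29 basal-like genes 9 were tested, 2 higher in Panc1 and 4 in MiaPaCa2 at 2-fold. The squamous keratins KRT5, KRT6A and KRT17 were below 0.2 in every library.

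The HOX genes, which mark position along the body axis, were mostly higher in Panc1. Of 45 HOX genes and HOX-linked transcripts, 25 were tested and 18 were 2-fold higher in Panc1, against 2 in MiaPaCa2, with a median difference of 1.44 beside 0.01 for all tested genes. HOXC10 measured 60.9, 59.01 and 61.1 in Panc1 and 0.156, 0 and 0 in MiaPaCa2, HOXC9 averaged 17.7 ± 1.47 and 0.01 ± 0.0173, and HOXC13 16.6 ± 0.36 and 0.0127 ± 0.0219. In the HOXB cluster, HOXB9 was on in both lines, at 32.1 ± 1.101 and 23.95 ± 0.131. A run of 6 adjacent tested genes from HOXB3 to HOXB7 was called 2-fold for Panc1, with a median difference of 1.43. Of these, 3 had the same call between the knockouts. HOXB8 was 1 of the 2 genes 2-fold higher in MiaPaCa2, at 24.9, 23.7 and 25.8 in Panc1 and 55.8, 59.1 and 56.3 in MiaPaCa2 (-1.17). Fetal RNA-binding proteins that stabilise growth-related messages were split between the lines. IGF2BP1 measured 8.23, 8.59 and 8.07 in Panc1 and 0.01, 0 and 0 in MiaPaCa2, whereas IGF2BP3 was on in both and higher in MiaPaCa2, 83.7 ± 3.501 against 28.9 ± 0.897. HMGA2, a fetal chromatin protein, was at 30.6, 29.99 and 30.9 in Panc1 and 0.055, 0 and 0 in MiaPaCa2.

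Neuronal genes and other lineage factors were found in both lines. VGF, a neuropeptide precursor, measured 41.2, 55.2 and 48.2 in MiaPaCa2 and 7.73, 7.301 and 8.08 in Panc1, and TUBB3, a neuronal tubulin, 373, 398 and 375 and 177, 172 and 175. MAP1B, a neuronal microtubule protein, and L1CAM, a neural adhesion protein, were higher in Panc1, at 14.2 ± 0.471 against 0.462 ± 0.12 and 21.6 ± 0.524 against 2.004 ± 0.116. Of 48 neuronal and neuroendocrine genes, 17 were tested, with 5 called 2-fold in each direction. Among other factor families FOXF2 and FOXL1, which act in gut mesenchyme, measured 16.4, 14.6 and 17.2 and 15.8, 16.6 and 16.7 in Panc1 against 0.019, 0 and 0.019 and 0.129, 0.059 and 0.115 in MiaPaCa2, and TBX1, a factor of the pharyngeal arches, averaged 57.2 ± 4.66 and 0.222 ± 0.0718. BARX2, a homeobox factor, and SATB1, a chromatin organiser, were higher in MiaPaCa2 (-2.42 and -2.27).

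Both lines combined simple keratins with mesenchymal genes. KRT19, the duct keratin, measured 541, 539 and 543 in Panc1 and 102, 109 and 105 in MiaPaCa2, 5.13-fold higher in Panc1 (difference 2.35, SE 0.03, adjusted p = 2.55e-10 by limma). KRT8 and KRT18, which pair with each other, went the other way by less than 2-fold, at 372 ± 6.39 against 649 ± 12.3 and 309.9 ± 12.7 against 487 ± 15.7. KRT7 was low, at 2.48 ± 0.102 in Panc1 and 0.0303 ± 0.0222 in MiaPaCa2. VIM, the mesenchymal intermediate filament, was among the most abundant messages of both lines, at 2244, 2177 and 2345 in Panc1 and 2409, 2483 and 2434 in MiaPaCa2, and its small difference (-0.12, adjusted p = 0.0233 by limma) turned to 0.27 with quantile normalization. ZEB1, a repressor of epithelial genes, was at 7.82 ± 1.01 and 10.5 ± 0.691. Of 42 genes of the mesenchymal program, 28 were tested, 12 called 2-fold for Panc1 and 2 for MiaPaCa2. Of 40 genes of the epithelial program, 14 were tested, 9 called 2-fold for Panc1 and 2 for MiaPaCa2, with a median difference of 1.63. Among its splicing factors ESRP2 averaged 10.9 ± 0.107 in Panc1 and 0.287 ± 0.0663 in MiaPaCa2, whereas ESRP1, and the epithelial regulator GRHL2, were below 0.1 in both lines.

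Cell junction genes were 2-fold higher in Panc1 more often than in MiaPaCa2, as were all tested genes (15% and 10.3%). CDH2, the mesenchymal cadherin, measured 15.1, 15.8 and 16.2 in Panc1 and 0.036, 0 and 0 in MiaPaCa2 (4.04, SE 0.05), and CDH1 and CDH3 were below 0.2 in MiaPaCa2. Of 32 cadherins, catenins and nectins, 14 were tested, 5 (35.7%) called 2-fold for Panc1 and 2 (14.3%) for MiaPaCa2. Protocadherins and large cadherins leaned to MiaPaCa2 in calls of any size, with 12 of 40 tested, 4 called for Panc1 and 8 for MiaPaCa2. Their median difference was -0.71, although 4 were 2-fold for Panc1 and 1 for MiaPaCa2. Among tight junction genes 19 of 33 were tested, 9 (47.4%) were 2-fold higher in Panc1 and 2 (10.5%) in MiaPaCa2. The sealing claudin CLDN4 measured 40.6, 40.3 and 42.3 in Panc1 and 3.24, 3.42 and 2.82 in MiaPaCa2. Of 14 desmosome genes, 7 were tested, 5 called for Panc1 and 2 for MiaPaCa2, 2 and 1 of them 2-fold, and the summed level of the list was 325 to 333 in Panc1 and 68.9 to 75.4 in MiaPaCa2. PPL, which links keratin to desmosomes and is outside the list, averaged 23.95 ± 0.445 in Panc1 and 0.118 ± 0.0287 in MiaPaCa2. DSP, which anchors keratin there too, was the gene called 2-fold for MiaPaCa2, at 5.99, 6.35 and 6.13 against 0.314, 0.242 and 0.242 (-2.50). In the knockout libraries DSP averaged 7.47 in Panc1 and 6.15 in MiaPaCa2.

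**Figure D2:**
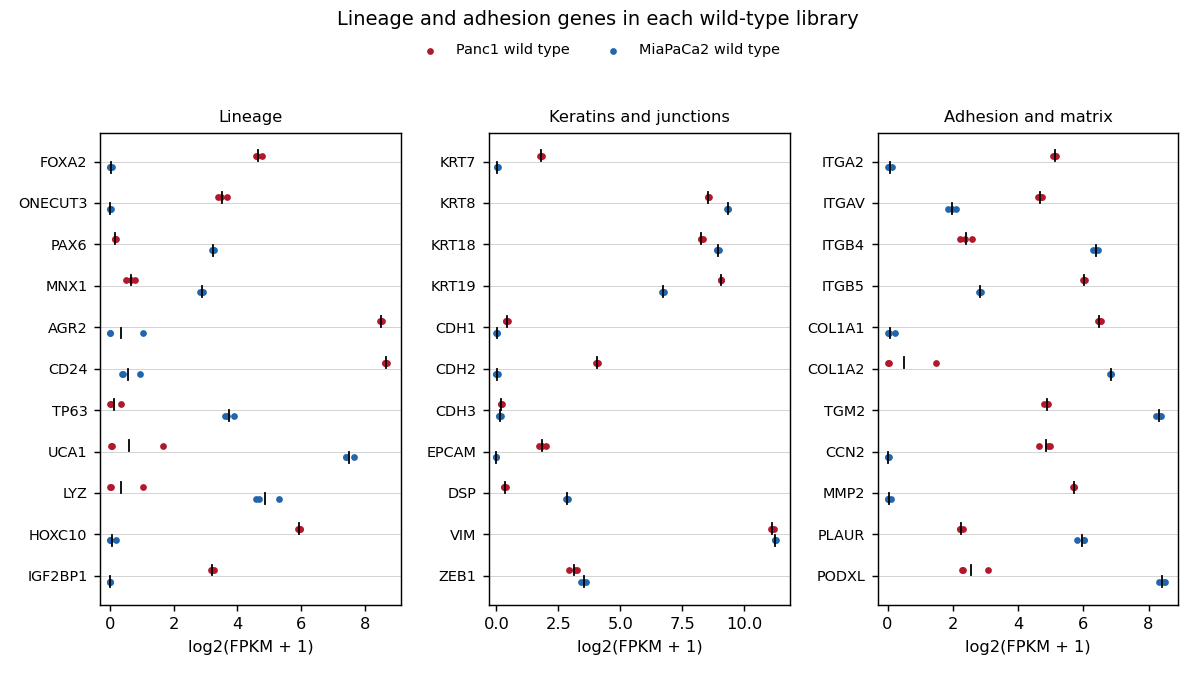
Level of 33 lineage, keratin, junction, adhesion and matrix genes in each wild-type library as log2(FPKM + 1), with 3 points per line (red Panc1, blue MiaPaCa2) and a black tick at the mean of the 3 log2 values. KRT8, KRT18, VIM and ZEB1 lie close together, most other pairs lie far apart, and replicate 1 stands off from the other libraries at COL1A2, UCA1, LYZ and AGR2.

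Integrins, the receptors that tie cells to matrix, were 2-fold higher in Panc1 more often than in MiaPaCa2. Of 25 subunits, 12 were tested, 7 (58.3%) were 2-fold higher in Panc1 and 1 (8.33%) in MiaPaCa2, beside 15% and 10.3% of all genes. ITGA2, part of a collagen receptor, measured 33.8, 34.8 and 32.8 in Panc1 and 0.097, 0.024 and 0.012 in MiaPaCa2 (5.06, limma adjusted p = 1.18e-10). ITGAV and ITGB5, which pair as a vitronectin receptor, averaged 24.8 ± 0.954 and 64.1 ± 1.69 in Panc1 against 2.95 ± 0.349 and 6.15 ± 0.134 in MiaPaCa2. ITGB4, the hemidesmosome subunit, was the only subunit called 2-fold for MiaPaCa2, at 82.7, 86.3 and 78.3 against 5.08, 4.18 and 3.69 (-3.98). Its partner ITGA6 was higher in Panc1, 32.6 ± 0.636 against 7.54 ± 0.448. The shared subunit ITGB1 differed by 0.32, and ITGA3 by -0.09, which was not called (adjusted p = 0.0541 by limma).

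Adaptors that link integrins to actin differed member by member, with 47 of 54 tested, 10 called 2-fold for Panc1 and 8 for MiaPaCa2. ACTN4, an actin crosslinker, measured 1194, 1236 and 1229 in Panc1 and 197, 210.0 and 201 in MiaPaCa2, and TES, a zyxin partner, 21.3, 22.6 and 22.2 and 0.033, 0.013 and 0.06. FERMT1, the epithelial kindlin that activates integrins, measured 56.5, 61.7 and 60.8 in MiaPaCa2 and 1.46, 0.907 and 0.919 in Panc1, and LPXN, a relative of paxillin, averaged 30.1 ± 0.946 and 1.39 ± 0.0896. Paxillin itself (PXN) and vinculin (VCL) were abundant in both, at 195 ± 4.05 and 186 ± 6.29 in Panc1 against 181 ± 9.05 and 139.6 ± 5.71 in MiaPaCa2.

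Basement membrane genes were higher in Panc1 and the type IV collagen chains COL4A1 and COL4A2 in MiaPaCa2. Of 22 laminin chains and basement membrane genes, 14 were tested, with 10 called 2-fold for Panc1 and 2 for MiaPaCa2 and a median difference of 1.84. LAMA5 averaged 48.99 ± 2.61 in Panc1 and 3.1 ± 0.153 in MiaPaCa2, LAMB1 18.5 ± 0.476 and 0.783 ± 0.0457, and NID1, the nidogen that links laminin to collagen, 17.5 ± 0.42 and 0.019 ± 0.0115. The 2 genes for MiaPaCa2 were COL4A1, at 2.29, 2.62 and 2.63 against 0.018, 0 and 0, and COL4A2.

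The lines expressed different chains of type I collagen, a molecule normally built from COL1A1 and COL1A2 together. COL1A1 measured 86.7, 91.8 and 89.5 in Panc1 and 0.163, 0 and 0.023 in MiaPaCa2 (6.41, SE 0.06), and COL1A2 1.78, 0.017 and 0.026 in Panc1 and 115, 113 and 114 in MiaPaCa2 (-6.33, SE 0.35). Panc1 replicate 1 was the only Panc1 library with COL1A2 above 0.1. The opposite order held in the knockout libraries, with COL1A1 means of 314 and 0.0343 and COL1A2 means of 0.247 and 150.3. COL18A1, a basement membrane collagen, was higher in Panc1 (259 ± 9.83 against 20.03 ± 0.885), and the fibrillar COL5A2 and the hemidesmosomal COL17A1 were higher in MiaPaCa2 (-5.61 and -3.83). Of 32 collagens, 16 were tested, 9 called 2-fold for Panc1 and 5 for MiaPaCa2.

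Matrix glycoproteins leaned to Panc1. Crosslinking enzymes stood on both sides, and made up 2 of the 4 genes called for MiaPaCa2. Of 57 matrix proteins and crosslinking enzymes, 29 were tested, 22 called 2-fold for Panc1 and 4 for MiaPaCa2, with a median difference of 2.02. CCN2, a matricellular protein and a target of YAP, measured 23.8, 29.5 and 30.6 in Panc1 and 0.039, 0 and 0 in MiaPaCa2, and THBS1, a platelet and matrix adhesion protein, 2.44, 2.896 and 2.82 in Panc1 and 0 in all 3 MiaPaCa2 libraries. TGM2, a transglutaminase that crosslinks matrix, measured 332, 326 and 302 in MiaPaCa2 and 29.5, 27.02 and 28.6 in Panc1, 11.3-fold higher in MiaPaCa2, and the lysyl oxidase LOXL2 averaged 94.2 ± 1.78 and 21.6 ± 0.82. The LOXL2 relative LOXL1 had the reverse order, at 18.1 ± 1.15 in Panc1 and 0.0197 ± 0.0195 in MiaPaCa2. FN1 and SPARC, matrix genes of many mesenchymal cells, stayed below 0.3 in both lines.

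Matrix proteases differed in both directions, with 23 of 47 tested, 5 called 2-fold for Panc1 and 6 for MiaPaCa2. MMP2, a gelatinase, measured 50.7, 52.1 and 51.4 in Panc1 and 0.073, 0 and 0.015 in MiaPaCa2, and PLAUR, the urokinase receptor, 3.68, 3.68 and 3.95 and 54.97, 64.6 and 64. The protease PLAU was abundant in both, at 137 ± 1.99 and 169 ± 8.48. Protease inhibitors of the matrix leaned to MiaPaCa2, with 15 of 37 tested, 8 called 2-fold for MiaPaCa2 and 1 for Panc1. SERPINF1, which encodes an anti-angiogenic serpin, measured 109, 91.7 and 90.4 in MiaPaCa2 and 2.402, 0.971 and 1.37 in Panc1, and TIMP2, an inhibitor of metalloproteases, averaged 140.3 ± 24.8 and 26.2 ± 1.64.

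At the cell surface, PODXL, a charged sialomucin, measured 319, 359 and 353 in MiaPaCa2 and 7.51, 3.905 and 4.02 in Panc1, with replicate 1 the highest Panc1 library. ANPEP, an aminopeptidase, measured 279.5, 302 and 288 in Panc1 and 0.508, 0 and 0 in MiaPaCa2, MCAM, an adhesion protein of vessel and melanoma cells, averaged 43.9 ± 1.41 and 0.188 ± 0.0452, and ICAM1, the ligand of leukocyte integrins, 9.51 ± 0.606 and 0.036 ± 0.0193. Of 50 tetraspanins and surface adhesion proteins, 31 were tested, 19 called 2-fold for Panc1 and 4 for MiaPaCa2. CD44, the hyaluronan receptor, was high in both, at 438 ± 4.01 and 356 ± 8.22.

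Genes of glucose uptake, glycolysis and lactate differed in both directions. Of 49 such genes, 36 were tested, 17 called for Panc1 and 15 for MiaPaCa2, 7 and 8 of them 2-fold, which is 19.4% and 22.2% beside 15% and 10.3% of all genes. LDHB, the subunit that favours lactate oxidation, measured 236, 252 and 221 in Panc1 and 0.614, 0 and 0 in MiaPaCa2 (7.66, SE 0.17, limma adjusted p = 2.7e-09), with 0 in MiaPaCa2 replicates 2 and 3. LDHA, the subunit that favours lactate production, measured 403, 399.7 and 404 and 326, 324 and 334. The aldolase ALDOA did not differ beyond the spread (687 ± 21.3 and 659 ± 10.1), nor did the glucose transporter SLC2A1 (22.6 ± 0.758 and 25.4 ± 2.33, limma adjusted p = 0.0513), and HK2, a hexokinase, was higher in MiaPaCa2 by 2.86-fold.

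The mitochondrial NADPH enzymes ME3 and NNT were higher in Panc1. Of 21 pentose phosphate and NADPH genes 19 were tested, 7 called for Panc1 and 11 for MiaPaCa2, with a median difference of -0.36. At 2-fold 3 (15.8%) were called for Panc1 and 4 (21.1%) for MiaPaCa2, beside 15% and 10.3% of all genes. ME3, a mitochondrial malic enzyme, measured 20.4, 20.2 and 20.2 in Panc1 and 0.066, 0 and 0.006 in MiaPaCa2, and NNT, the transhydrogenase of the inner membrane, 19.5, 19.7 and 19.4 and 2.98, 2.71 and 2.79. Respiratory chain subunits were mostly level between the lines, since 49 of 53 were tested and none was called 2-fold for Panc1 and 2 for MiaPaCa2, although 19 and 21 were called without the 2-fold limit.

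Redox enzymes were higher in MiaPaCa2 more often than in Panc1. Of 64 NRF2-linked, aldehyde dehydrogenase and glutathione genes, 51 were tested, 20 called 2-fold for MiaPaCa2 and 10 for Panc1, with a median difference of -0.46. ALDH1A1, which oxidises retinal and other aldehydes, measured 221, 187 and 202 in MiaPaCa2 and 2.24, 0.039 and 0.059 in Panc1, while its relative ALDH1A3 was higher in Panc1, 20.8, 22.4 and 21.6 against 2.15, 2.49 and 2.63. NQO1, a quinone reductase under NRF2, measured 233, 236 and 244 in MiaPaCa2 and 24.6, 21.6 and 21.3 in Panc1, 10.6-fold higher in MiaPaCa2. MGST1, a membrane glutathione transferase, averaged 41.9 ± 4.02 and 0.831 ± 0.331, and GCLM, the regulatory subunit of glutathione synthesis, 30.8 ± 1.15 and 11.6 ± 0.474. AKR1C1 and GSTM1 were also 2-fold higher in MiaPaCa2, but both have near-identical relatives and their values are uncertain. Of 30 iron and metallothionein genes, 16 were tested, 7 called 2-fold for MiaPaCa2 and 2 for Panc1. FTL, the ferritin light chain, measured 4385, 3810.5 and 3777 in MiaPaCa2 and 650.3, 633 and 645 in Panc1, and MT1X 223 ± 20.7 and 26.2 ± 1.91, with the same caution on copies.

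Serine, glycine and folate genes were more often higher in MiaPaCa2. Of 30 genes, 25 were tested, 19 were called for MiaPaCa2 and 5 for Panc1, 5 of them 2-fold for MiaPaCa2 and none for Panc1, with a median difference of -0.73, and of -0.63 between the knockout lines. PHGDH, the first enzyme of serine synthesis, measured 52.7, 44.5 and 43.5 in MiaPaCa2 and 10.8, 10.7 and 10.9 in Panc1. ASNS, the asparagine synthetase, averaged 73.6 ± 6.48 and 37.5 ± 1.69. In the knockout libraries PHGDH averaged 53.99 in MiaPaCa2 and 31 in Panc1, and ASNS 96.7 and 111, so that the ASNS order was not kept there.

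Other amino acid genes had the same lean. Of 49 genes of glutamine, asparagine, arginine, proline and branched-chain metabolism, 31 were tested, 25 were called for MiaPaCa2 and 5 for Panc1, 8 and 1 of them 2-fold. GOT2, the mitochondrial aspartate transaminase, measured 142, 146 and 141 in MiaPaCa2 and 39.4, 38.5 and 38.8 in Panc1, and BCAT2, the mitochondrial branched-chain transaminase, averaged 52.4 ± 0.782 and 16.5 ± 0.64. Apart from amino acids, 23 of 30 gluconeogenesis, glycogen, fructose and polyol genes were tested. Of these, 7 (30.4%) were called 2-fold for MiaPaCa2 and 3 (13%) for Panc1. PCK2, the mitochondrial enzyme that makes phosphoenolpyruvate, averaged 37.3 ± 4.41 in MiaPaCa2 and 7.01 ± 0.238 in Panc1. PYGL, which breaks down glycogen, averaged 71.6 ± 2.92 and 13.2 ± 0.391.

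Lipid genes differed in both directions. Of 35 genes of fatty acid synthesis, elongation and desaturation, 27 were tested, 9 called for Panc1 and 13 for MiaPaCa2, 6 and 2 of them 2-fold. Of 56 genes of lipid uptake, storage and oxidation, 33 were tested, 14 called for Panc1 and 15 for MiaPaCa2, 9 and 5 of them 2-fold, and the sign of their median difference (-0.04) turned with the scaling. FADS2, a desaturase of polyunsaturated fatty acids, measured 117, 122 and 119 in Panc1 and 15.8, 9.06 and 8.73 in MiaPaCa2, ELOVL2, which lengthens them, averaged 19.2 ± 0.505 and 0.102 ± 0.0485, and ACSL4, which activates them, 24.6 ± 1.04 and 4.35 ± 0.353. CPT1A, the gate of mitochondrial fatty acid oxidation, averaged 60.2 ± 0.912 and 9.78 ± 0.696. PLIN2, the coat of lipid droplets, measured 40.5, 37.97 and 39.5 in MiaPaCa2 and 5.65, 6.29 and 5.62 in Panc1, and LIPA, the lysosomal lipase, averaged 68.4 ± 11.5 and 14.3 ± 1.07. MSMO1 and SC5D, late enzymes of cholesterol synthesis, were higher in Panc1 (2.12 and 2.67). Of 32 cholesterol genes, 28 were tested, 7 called 2-fold for Panc1 and 2 for MiaPaCa2.

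Single genes of drug handling differed strongly, while their list was not far from all genes. Of 39 genes of nucleoside uptake, gemcitabine metabolism and drug efflux, 34 were tested, 8 (23.5%) called 2-fold for Panc1 and 4 (11.8%) for MiaPaCa2, beside 15% and 10.3% of all genes. ABCC1, an efflux pump of drugs and conjugates, measured 125, 132 and 128 in Panc1 and 8.13, 7.56 and 7.37 in MiaPaCa2, ABCC3 averaged 19.9 ± 0.193 and 0.638 ± 0.127, and ABCC2 the reverse, 0.172 ± 0.102 and 17.8 ± 1.48. SLC29A1, the nucleoside carrier that takes up gemcitabine, measured 169, 177 and 175 in Panc1 and 43.2, 54.1 and 53.6 in MiaPaCa2, 3.46-fold higher in Panc1. AHR, the receptor of aryl hydrocarbons, measured 14.8, 14.3 and 14.4 in Panc1 and 0.052, 0 and 0.007 in MiaPaCa2, and CYP1B1, a cytochrome that AHR induces, 36.1 ± 1.803 and 0.618 ± 0.0132. Of 34 hypoxia genes, 27 were tested, 6 (22.2%) called 2-fold for Panc1 and 3 (11.1%) for MiaPaCa2. EPAS1, which encodes HIF-2 alpha, averaged 24.3 ± 1.15 in Panc1 and 0.308 ± 0.0916 in MiaPaCa2, whereas HIF1A did not differ beyond the spread (39.96 ± 2.002 and 41.6 ± 1.305). ADM and STC2, a vasodilator peptide and a calcium-regulating hormone, were higher in Panc1 (4.93 and 5.30). MTAP, which salvages methionine, measured 4.05, 3.66 and 3.48 in Panc1 and 0.009, 0 and 0.009 in MiaPaCa2.

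**Figure D3:**
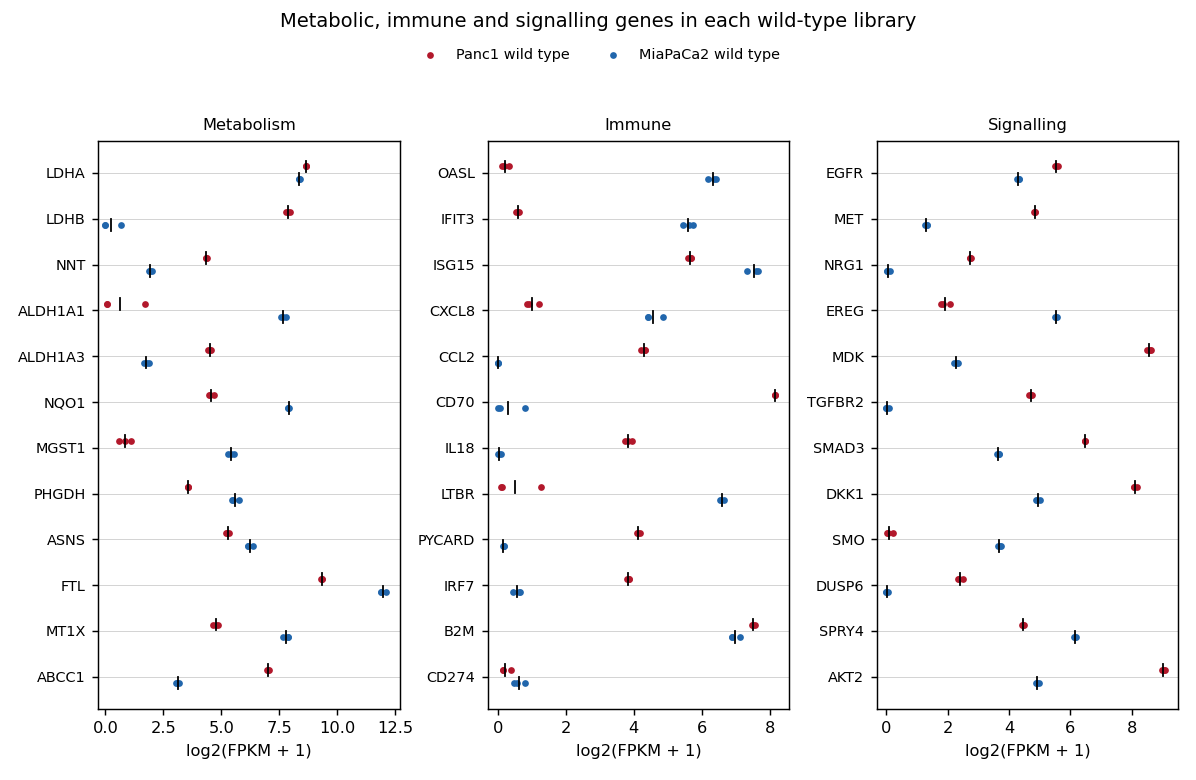
Level of 36 metabolic, immune and signalling genes in each wild-type library as log2(FPKM + 1), with 3 points per line (red Panc1, blue MiaPaCa2) and a black tick at the mean of the 3 log2 values. LDHA and B2M lie close together, LDHB, ALDH1A1, CD70, LTBR, TGFBR2 and SMO lie near 0 in 1 line, and replicate 1 stands off at LDHB, ALDH1A1, CD70 and LTBR.

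Interferon-stimulated genes, which cells switch on after sensing viral RNA or DNA, were higher in wild-type MiaPaCa2. Of 68 such genes, 48 were tested, 21 called 2-fold for MiaPaCa2 and 4 for Panc1, with a median difference of -0.66 beside 0.01 for all tested genes. OASL, an oligoadenylate synthetase relative, measured 72.2, 80.3 and 84.7 in MiaPaCa2 and 0.132, 0.083 and 0.242 in Panc1 (-6.12, SE 0.08, limma adjusted p = 1.58e-10). IFIT3, which binds foreign RNA with its relatives, measured 42.6, 47.9 and 52.5 and 0.517, 0.533 and 0.452, and IFIT1 23.5, 26.05 and 29.6 and 0.833, 0.788 and 0.859. ISG15, a ubiquitin-like modifier, was on in both lines, at 161, 192 and 198 in MiaPaCa2 and 50.1, 47.6 and 49.9 in Panc1. The 4 genes called for Panc1 were OAS3, TRIM21, PARP10 and TRIM5. Between the knockout lines 7 genes of the list were 2-fold higher in MiaPaCa2 and 10 in Panc1, the list median was 0.06, and the MiaPaCa2 knockout means of OASL, IFIT3 and ISG15 were 8.79, 5.87 and 22.8. The difference in this list between the wild-type and knockout comparisons was not tested.

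The promoters of IFIT1, IFIT3 and ISG15 are shown because these genes moved together and are textbook targets of interferon-stimulated response elements. The sequences are RefSeq promoter windows of GRCh38.p14, from 250 bases before to 50 bases after the annotated start, all on the plus strand, written 5′ to 3′. Capitals mark matches to GAAANNGAAA on either strand, overlapping matches joined. IFIT1 lies at chr10:89392373-89392672, IFIT3 at chr10:89327747-89328046 and ISG15 at chr1:1013247-1013546.
IFIT1: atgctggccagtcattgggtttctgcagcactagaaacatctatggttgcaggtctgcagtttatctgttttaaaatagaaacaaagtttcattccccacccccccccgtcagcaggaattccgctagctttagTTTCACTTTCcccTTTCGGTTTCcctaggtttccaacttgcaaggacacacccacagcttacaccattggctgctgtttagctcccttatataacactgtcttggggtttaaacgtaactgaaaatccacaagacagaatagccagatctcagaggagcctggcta
IFIT3: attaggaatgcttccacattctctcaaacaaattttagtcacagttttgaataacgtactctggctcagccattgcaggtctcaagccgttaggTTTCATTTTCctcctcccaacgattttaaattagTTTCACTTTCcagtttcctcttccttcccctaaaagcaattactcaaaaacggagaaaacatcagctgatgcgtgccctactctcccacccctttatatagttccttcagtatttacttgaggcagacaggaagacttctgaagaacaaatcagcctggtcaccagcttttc
ISG15: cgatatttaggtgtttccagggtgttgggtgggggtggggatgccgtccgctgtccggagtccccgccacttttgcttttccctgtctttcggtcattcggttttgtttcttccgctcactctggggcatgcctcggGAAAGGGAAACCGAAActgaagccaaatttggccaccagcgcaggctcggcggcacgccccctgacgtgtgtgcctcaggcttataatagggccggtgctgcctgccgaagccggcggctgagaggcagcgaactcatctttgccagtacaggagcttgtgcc
Each of these windows held 2 matches, which in ISG15 overlapped. IFIT3 has another window in the table, at chr10:89332279-89332578, which also held 2 matches and is not printed. Among all 35116 windows of the table, 1255 (3.57%) held a match. A window was found for 36 of the 48 tested interferon-stimulated genes (75%), and the list was not compared with other genes. A match is a description of the letters and not of binding.

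Sensors and regulators of this response were mixed. IFIH1, a sensor of long double-stranded RNA, measured 7.46, 7.32 and 7.797 in MiaPaCa2 and 0.219, 0.248 and 0.181 in Panc1, and TMEM173, the adaptor also called STING, averaged 14.2 ± 1.93 and 2.53 ± 0.128. In contrast IRF7, the factor that amplifies interferon genes, measured 12.9, 13.4 and 13.5 in Panc1 and 0.572, 0.37 and 0.524 in MiaPaCa2, and PYCARD, the inflammasome adaptor, 16.01, 16.5 and 17.3 and 0.126, 0.127 and 0.11. IRF9, a subunit of the interferon-activated transcription complex, did not differ beyond the spread (5.97 ± 0.463 and 5.67 ± 0.976). In the knockout libraries IFIH1 averaged 0.684 in Panc1 and 0.625 in MiaPaCa2.

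CXCL8, CXCL1 and CXCL5 were higher in MiaPaCa2, and the CC chemokines CCL5 and CCL2 stood on opposite sides. CXCL8, the main neutrophil attractant, measured 27.8, 20.5 and 20.6 in MiaPaCa2 and 1.33, 0.881 and 0.814 in Panc1, and CXCL1 and CXCL5, which share its receptor, averaged 33.2 ± 4.39 and 11.2 ± 0.997 in MiaPaCa2 against 2.71 ± 0.076 and 0.255 ± 0.111 in Panc1. CCL5, a T cell attractant, was also higher in MiaPaCa2 (8.85 ± 0.485 against 0.203 ± 0.112). CCL2, the monocyte attractant, measured 17.7, 19.2 and 19.2 in Panc1 and was at 0 in all 3 MiaPaCa2 libraries. Of 44 chemokines and receptors, 15 were tested, 7 called 2-fold for MiaPaCa2 and 2 for Panc1.

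Cytokine genes leaned to Panc1, with 31 of 67 tested, 15 called 2-fold for Panc1 and 4 for MiaPaCa2. IL18, a product of the inflammasome, measured 13.1, 12.4 and 14.5 in Panc1 and 0.067, 0 and 0.017 in MiaPaCa2, and CD70, the ligand of CD27, 285, 281 and 285 and 0.722, 0 and 0.05. LTBR, the lymphotoxin receptor, had the reverse order, at 99.7, 94.1 and 91.03 in MiaPaCa2 and 1.399, 0.071 and 0.081 in Panc1, where replicate 1 was the only library above 0.1. LIF did not differ beyond the spread (15.9 ± 0.633 and 14.9 ± 1.26). For CD70 and LTBR the line with the lower level had its highest value in replicate 1.

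Class I antigen presentation separated the wild-type lines little. Of 23 class I genes, 20 were tested and none was called 2-fold in either direction, although limma's test called 8 for Panc1 and 6 for MiaPaCa2 at smaller differences. With quantile normalization 3 were called 2-fold for MiaPaCa2. Between the knockout lines 4 were 2-fold higher in Panc1 and none in MiaPaCa2, with a median difference of 0.48. B2M, the shared light chain, averaged 182 ± 4.98 in Panc1 and 124 ± 11.9 in MiaPaCa2, and TAP1, a peptide transporter, 2.095 ± 0.00961 and 1.35 ± 0.0101. Class I heavy chain genes are polymorphic and near-identical, and their values are uncertain. HLA-B, with means of 2.19 in Panc1 and 5.23 in MiaPaCa2, lay just under the 2-fold limit at -0.97. At such low levels the added 1 understates the change. CD274, which encodes PD-L1, was below 1 FPKM in every wild-type library.

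Several surface proteins that meet complement and natural killer cells were higher in Panc1, where 7 of 23 tested checkpoint and killer-receptor ligands were called 2-fold, against 3 in MiaPaCa2. CD55 and CD59, which protect cells from complement, measured 109, 108 and 103 and 107, 106 and 105 in Panc1 against 4.72, 5.48 and 5.58 and 11.7, 10.1 and 10.7 in MiaPaCa2. MICB, a stress ligand of the NKG2D receptor, averaged 4.202 ± 0.087 and 0.386 ± 0.0181, and TNFSF9, the ligand of 4-1BB, 18.6 ± 0.227 and 1.58 ± 0.0857. CD58, the ligand of CD2, and LGALS3, a galectin, were higher in MiaPaCa2 (-1.01 and -1.77). PTX3, a secreted pattern receptor, measured 20.1, 26.2 and 26.2 in MiaPaCa2 and 0.616, 0.723 and 0.785 in Panc1, with a MiaPaCa2 knockout mean of 2.44.

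Growth factor ligands and receptors differed in both directions. EREG, a ligand of the EGF receptor, measured 45.6, 43.8 and 46.2 in MiaPaCa2 and 3.24, 2.61 and 2.48 in Panc1, and AREG, a related ligand, averaged 2.26 ± 0.271 and 0.0437 ± 0.0254. NRG1, which activates ERBB3 and ERBB4, measured 5.63, 5.64 and 5.81 in Panc1 and 0.09, 0.024 and 0.023 in MiaPaCa2. The receptor EGFR was higher in Panc1 by 2.44-fold and ERBB2 in MiaPaCa2 by 1.88-fold, while ERBB3 was below 1 FPKM in both. MET, the receptor of hepatocyte growth factor, measured 27.7, 27.9 and 27.1 in Panc1 and 1.54, 1.49 and 1.398 in MiaPaCa2, and its relative MST1R averaged 11.2 ± 0.54 and 0.104 ± 0.0713. MDK, the heparin-binding growth factor midkine, was at 362, 390.1 and 384 in Panc1 and 3.59, 3.92 and 4.07 in MiaPaCa2. Of 79 receptor tyrosine kinases outside the ERBB family and their ligands, 34 were tested, 15 called 2-fold for Panc1 and 6 for MiaPaCa2. Receptors higher in MiaPaCa2 were DDR2, a collagen receptor, at 21.3 ± 0.164 against 0.268 ± 0.159, NGFR, the neurotrophin receptor, at 13.2 ± 2.3 against 0.55 ± 0.184, and INSR, the insulin receptor, at 3.19 ± 0.231 against 0.0893 ± 0.0356.

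Feedback genes of the RAS and ERK pathway, which are induced by its output, went both ways. SPRY4, SPRY2 and SPRY1, which restrain receptor signalling, were higher in MiaPaCa2 by 3.36, 3.604 and 2.76-fold, and the transcription factor ETV4 by 4.199-fold. DUSP6, the ERK phosphatase, measured 4.103, 4.21 and 4.702 in Panc1 and 0.041, 0 and 0 in MiaPaCa2. Of 60 genes of the pathway, 51 were tested, 6 called 2-fold for Panc1 and 8 for MiaPaCa2, shares close to those of all genes.

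TGF-beta and BMP genes were 2-fold higher in Panc1 more often than in MiaPaCa2. TGFBR2, the ligand-binding receptor, measured 24.3, 26.1 and 25.6 in Panc1 and 0.06, 0 and 0 in MiaPaCa2 (4.69, SE 0.05, limma adjusted p = 1.4e-10), with 0 in MiaPaCa2 replicates 2 and 3. TGFBR1, its partner, was on in both at 7.12 ± 0.292 and 3.53 ± 0.263. The ligand TGFB2 averaged 10.1 ± 0.06 in Panc1 and 0.0157 ± 0.00751 in MiaPaCa2, and TGFB1 differed by 0.33. Downstream, SMAD3 measured 87.8, 87.3 and 87.3 in Panc1 and 11.3, 11.8 and 11.8 in MiaPaCa2, and the inhibitor SMAD7 6.44 ± 0.0252 and 0.438 ± 0.0193, while SMAD4 was higher in MiaPaCa2 by 1.86-fold. ID2, a target of BMP signalling, and the ligand BMP7 were higher in MiaPaCa2 (-2.63 and -2.91). Of 67 TGF-beta and BMP genes, 38 were tested, 14 (36.8%) called 2-fold for Panc1 and 5 (13.2%) for MiaPaCa2, beside 15% and 10.3% of all genes.

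Wnt genes differed in both directions, with 34 of 68 tested, 13 called 2-fold for Panc1 and 8 for MiaPaCa2. In Panc1 the ligand WNT7B measured 60.3, 61.05 and 64.7 and the inhibitors DKK1, DKK3 and SFRP1 averaged 275 ± 11.9, 78.7 ± 2.097 and 78.5 ± 1.53. The MiaPaCa2 means of these 4 genes were 0.0827 ± 0.0401, 29.6 ± 1.44, 0.24 ± 0.135 and 0.137 ± 0.12. In MiaPaCa2 the transcription factor TCF7, the ligand acyltransferase PORCN and the receptor FZD8 were higher, at 101 ± 13.1, 80.3 ± 1.75 and 19.1 ± 0.47 against 9.19 ± 0.509, 14.1 ± 0.381 and 0.817 ± 0.0307 in Panc1. WLS, which carries Wnt ligands to the cell surface and is outside the list, was higher in Panc1, at 24.6 ± 0.757 against 0.073 ± 0.0483. AXIN2, a general target of the pathway, was below 1 FPKM in both lines. SMO, the Hedgehog signal transducer, measured 12.3, 11.4 and 12.04 in MiaPaCa2 and 0.167, 0.013 and 0.037 in Panc1, and DLL3, a Notch ligand that acts in the same cell, 90.96, 84.2 and 98.1 in Panc1 and 1.11, 0.704 and 0.911 in MiaPaCa2.

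YAP and TAZ, the coactivators held back by the Hippo pathway, had targets that leaned to Panc1. Of 38 genes of the YAP and TAZ list, 34 were tested, 10 called 2-fold for Panc1 and 1 for MiaPaCa2, with a median difference of 0.64. YAP1 averaged 40.5 ± 0.938 and 17.7 ± 0.322, WWTR1, which encodes TAZ, did not differ beyond the spread (80.5 ± 3.397 and 85.3 ± 2.01), and the target CCN1 averaged 108 ± 6.13 and 9.86 ± 0.45. AKT2, a kinase of the PI3K pathway, measured 505, 528 and 536 in Panc1 and 30.5, 29.4 and 28.7 in MiaPaCa2, 17.7-fold higher in Panc1, while AKT1 was higher in MiaPaCa2 by 1.45-fold. SGK1, a related kinase, measured 129, 126 and 127 in MiaPaCa2 and 16.1, 14.6 and 16.3 in Panc1. CDKN1A, a CDK inhibitor induced by stress, averaged 23.3 ± 1.15 in Panc1 and 4.76 ± 0.13 in MiaPaCa2. Among the 43 ArfGAP, exchange factor and Arf genes to which ASAP2 belongs, 37 were tested, 8 called 2-fold for Panc1, ASAP2 among them, and 1 for MiaPaCa2. ASAP1 averaged 41.9 ± 0.491 and 20.9 ± 1.53.

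**Figure D4:**
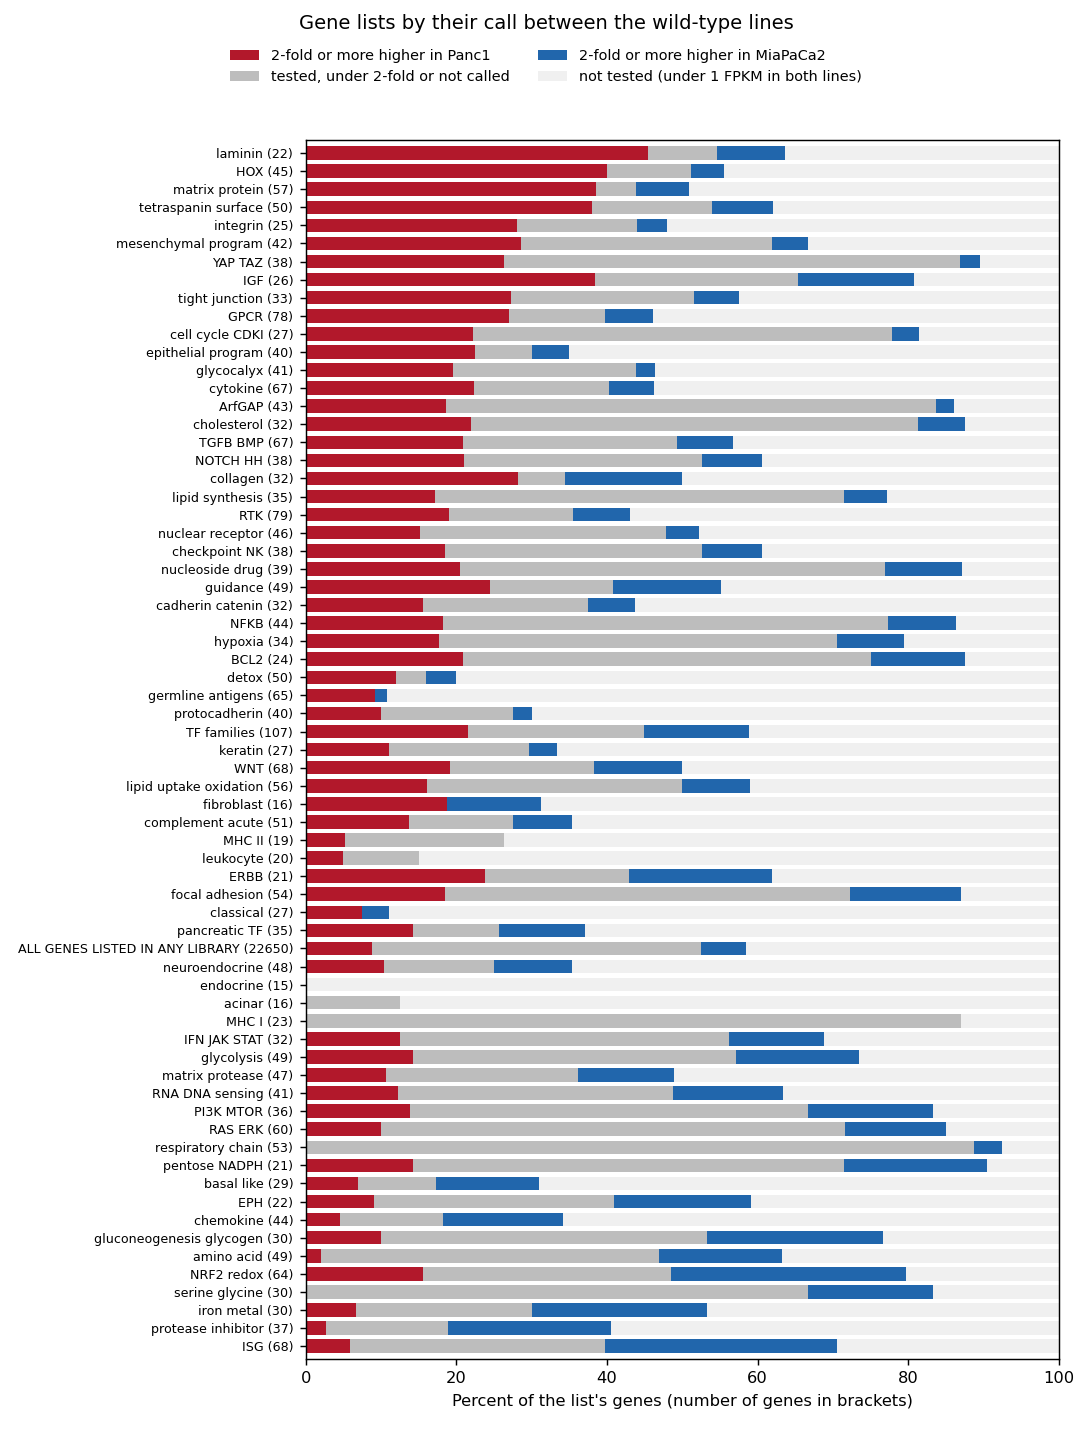
Share of each list's genes that were 2-fold higher in Panc1 (red), tested without a 2-fold call (grey), 2-fold higher in MiaPaCa2 (blue) or not tested (pale), for all but 1 of the lists of at least 15 genes, with the number of genes in brackets and all 22650 listed genes as a row. Laminin and HOX genes lie at the Panc1 end and interferon-stimulated genes (ISG) at the MiaPaCa2 end.

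Insulin-like growth factor genes leaned to Panc1, with 21 of 26 tested, 10 called 2-fold for Panc1 and 4 for MiaPaCa2. IGF2, a fetal growth factor, measured 10.9, 11.3 and 11.5 in Panc1 and 0.523, 0.484 and 0.515 in MiaPaCa2. Of its binding proteins, IGFBP4 averaged 645 ± 19.99 and 155 ± 16.2 and IGFBP3 11 ± 0.515 in Panc1 and 0 in MiaPaCa2, while IGFBP6, which prefers IGF2, was higher in MiaPaCa2 at 84.7 ± 21.4 against 9.59 ± 1.46. In the Panc1 knockout libraries IGFBP3 averaged 1.14.

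Receptors coupled to G proteins also leaned to Panc1, with 36 of 78 tested, 21 called 2-fold for Panc1 and 5 for MiaPaCa2. The lines differed in their protease-activated receptors. F2RL1, which is cut by trypsin, measured 95.8, 93.3 and 99.3 in Panc1 and 3.75, 2.73 and 3.17 in MiaPaCa2, and F2R, which is cut by thrombin, 33.1, 31.3 and 30.9 and 101, 106 and 103. NTSR1, the neurotensin receptor, averaged 61.4 ± 2.88 and 1.03 ± 0.217, PTGER4, a receptor of prostaglandin E2, 24.2 ± 1.06 and 0.722 ± 0.0206, and ADORA1, an adenosine receptor, 0.451 ± 0.0741 and 10.8 ± 0.474. PTGES, the enzyme that makes prostaglandin E2, was on the other side from PTGER4, at 37.2, 29.4 and 27.7 in MiaPaCa2 and 0.914, 0.706 and 0.415 in Panc1.

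Guidance genes, which steer growing axons and migrating cells, differed in both directions. NRP1, a receptor of class 3 semaphorins and VEGF, measured 39.9, 38.99 and 37.8 in Panc1 and 1.03, 0.603 and 0.56 in MiaPaCa2, and NRP2 averaged 15.4 ± 0.842 and 0.028 ± 0.0485. Their ligand SEMA3A measured 35.4, 31.2 and 34.8 in MiaPaCa2 and 1.06, 0.667 and 0.645 in Panc1. ROBO1, a Slit receptor, and the ligand SLIT3 were both higher in Panc1, at 7.78 ± 0.218 and 5.31 ± 0.0833 against 0.0353 ± 0.0195 and 0.00167 ± 0.00289. The ROBO1 relative ROBO4 was higher in MiaPaCa2, at 13.9 ± 0.725 against 0.163 ± 0.146. Among Eph receptors EPHB2 was higher in Panc1 (27.8 ± 0.563 against 5.39 ± 0.218) and EPHA4 in MiaPaCa2 (9.24 ± 0.874 against 0.69 ± 0.061). Of 49 guidance genes, 27 were tested, 12 called 2-fold for Panc1 and 7 for MiaPaCa2, and of 22 Eph and ephrin genes 13 were tested, 2 and 4.

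Single genes of cell death differed by far more than 2-fold. BCL2A1, an NF-kB-driven survival protein, measured 6.96, 7.66 and 7.9 in Panc1 and 0.077, 0 and 0 in MiaPaCa2, and BNIP3, a mitophagy receptor that hypoxia induces, 28.8, 28.3 and 29.4 and 0.214, 0.277 and 0.204. BCL2L1 was higher in Panc1 by 2.28-fold and the effector BAX in MiaPaCa2 by 2.22-fold. PLK2, a stress-induced kinase, measured 185, 172 and 175 in MiaPaCa2 and 13.5, 10.8 and 10.6 in Panc1, and the stress cytokine GDF15 12.9, 12.3 and 13.8 in Panc1 and 0.164, 0.067 and 0.099 in MiaPaCa2. Of 24 BCL2 family genes, 21 were tested, 5 called 2-fold for Panc1 and 3 for MiaPaCa2.

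Neighbouring genes shared their direction at several places. Positions are from the GENCODE annotation on GRCh37, the build of the files, and cover 12221 of the tested genes. In 422 windows of 2 Mb with at least 10 tested genes, the window median lay between -0.74 and 0.82 in the middle 90%. ACTN4, given above with the adhesion adaptors, lay in the window with the highest median. That window was at 38 to 40 Mb of chromosome 19, where 39 of 40 genes were higher in Panc1, 27 of them 2-fold, with a median of 2.23 (2.11 in the knockouts). The longest run of adjacent tested genes with the same 2-fold call began there, with 18 genes from SAMD4B to MAP3K10 (chromosome 19, 39833061 to 40721482), differences of 2.53 to 5.60, and 18 of 18 called again between the knockouts. It held genes of unrelated function, among them RPS16, a ribosomal protein, at 6754, 6746 and 6987 in Panc1 and 667, 674 and 682 in MiaPaCa2, PAF1, an elongation factor, at 623 ± 15.6 and 24.2 ± 0.941, PSMC4, a proteasome subunit, at 910.4 ± 28.7 and 77.1 ± 1.59, and DLL3. RPS16 has processed copies elsewhere in the genome, so its level is uncertain. AKT2 lay at 40736224 to 40791443, past TTC9B, which ended the run with a difference of 0.76, and C19orf47, the next tested gene beyond AKT2 and the small RNA inside it, differed by 0.85. These regions and the genes named in this and the next paragraph were chosen after their values were seen.

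**Figure D5:**
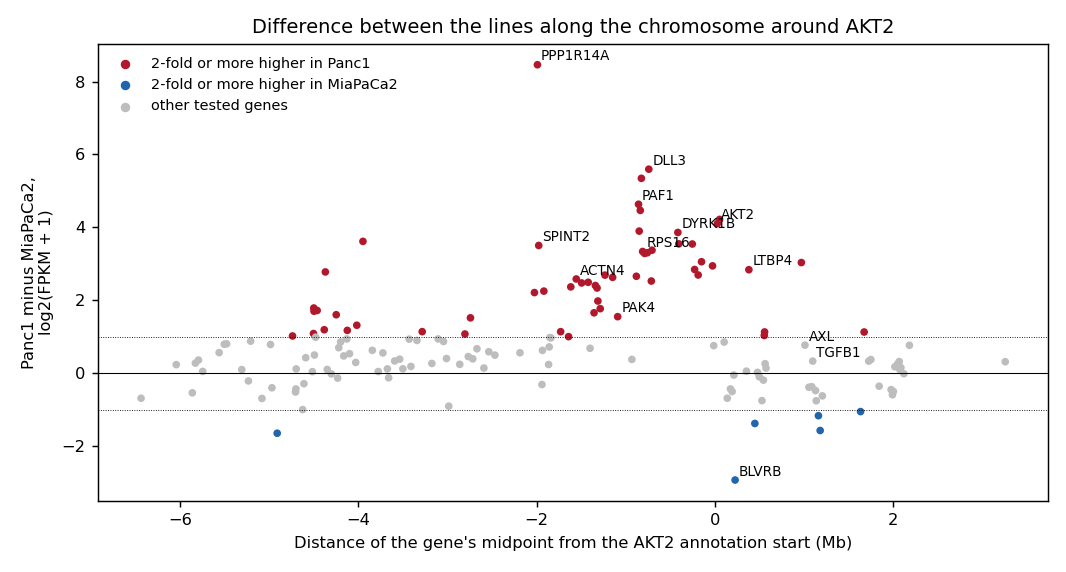
Difference between the lines (Panc1 minus MiaPaCa2, log2(FPKM + 1)) for each tested gene against the distance of its midpoint from the start of AKT2 in Mb. Left of AKT2 most genes of the nearest stretch lie above the dotted 2-fold line, with HNRNPL, LRFN1 and TTC9B below it, and right of AKT2 the points scatter on both sides of 0, with LTBP4 and CYP2S1 among those above the line.

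A selection of the other long runs is given here. A run of 8 genes for Panc1 from SIRT2 to PAK4 (chromosome 19, 39369195 to 39673456) had a median difference of 2.16. LRFN1, with a difference of 0.38, parted it from the longest run. The second run in length, 16 genes on chromosome 12 from HOXC13-AS to MIR3198-2 (54329112 to 54673917), held the HOXC cluster with HOTAIR and had a median difference of 2.68. A run of 9 genes on chromosome 14 from MEG3 to DIO3 (101245747 to 102086692) covered an imprinted cluster of non-coding RNAs, in which MEG3 measured 107, 105 and 101 in Panc1 and 0.148, 0 and 0 in MiaPaCa2. The longest run for MiaPaCa2, 9 genes on chromosome 4 from CXCL8 to BTC (74606236 to 75719733), joined the CXC chemokines to the EGF receptor ligands EREG, AREG and BTC, with differences from -3.62 to -1.04. On chromosome 9 a run of 7 genes from FOCAD to TUSC1 (20658308 to 25678442), with KLHL9 and MTAP, was on at low level in Panc1 and at or near 0 in MiaPaCa2: KLHL9 measured 3.46, 3.61 and 3.51 in Panc1 and 0 in every MiaPaCa2 library. All 16, 9 and 7 genes of the chromosome 12, 4 and 9 runs, and 8 of 9 on chromosome 14, had the same call between the knockouts. NQO1 and PCK2, given above, each lay in a run of 6 genes called 2-fold for MiaPaCa2, on chromosomes 16 and 14. The labels do not tell if counting used strand, so overlapping genes of opposite strands in these runs cannot be told apart. Over whole chromosomes the median difference ranged from -0.75 on chromosome 21, where 19.3% of 114 genes were higher in Panc1, to 0.49 on chromosome 15, where 79.5% of 395 were.

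Genes on in 1 line and off in the other were more numerous in Panc1. At 5 FPKM or more in each library of a line and below 0.5 in each library of the other, 286 genes were restricted to Panc1 and 66 to MiaPaCa2. Without replicate 1 of both lines, which listed low levels of the other line's genes, the counts were 306 and 87 and held all of the earlier genes. In the knockout libraries all 286 Panc1 genes and 63 of the 66 MiaPaCa2 genes were higher in the same line without overlap, and 208 and 43 of them met the same limits of 5 and 0.5 FPKM there. Protein-coding genes made up 260 and 52 of them. At a stricter limit of 20 FPKM or more against below 0.1, 22 genes were restricted to Panc1 and 1 to MiaPaCa2, which became 45 and 13 without replicate 1. The strict Panc1 genes included YBX2, a germ cell RNA-binding protein, at 59.4, 56.2 and 62.9 against 0.087, 0 and 0.008, EPHB6, a kinase-dead Eph receptor, at 37.2, 38.1 and 39.3 against 0.033, 0 and 0.02, and BARX1, a homeobox factor of stomach, at 30.8, 29.4 and 31.1 against 0.033, 0 and 0. The strict MiaPaCa2 gene was PICSAR, a long non-coding RNA, at 23.9, 25.9 and 24.5 against 0.063, 0 and 0.

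The largest differences over all genes, among those at 10 FPKM or more in the higher line, came from a small group. For Panc1 the first was PPP1R14A, an inhibitor of myosin phosphatase that lies in the chromosome 19 window above, at 469.9, 446 and 507 against 1.29, 0.068 and 0 (8.46), followed by AGR2, CD24, ANPEP, CD70 and LDHB. PDLIM1, an actin-linked scaffold, was at 219.6, 224 and 236 against 0.522, 0.085 and 0.029. For MiaPaCa2 the largest were ALDH1A1 and UCA1, and the calcium-binding protein CALB2 measured 218, 185 and 173 against 3.41, 0.543 and 0.602 (-6.44). SRGN, a proteoglycan of secretory granules, measured 345, 317 and 337 against 6.36, 2.801 and 2.702, and RGS4, a regulator of G-protein signalling, 247, 248 and 263 against 3.996, 1.86 and 1.89. In each of CALB2, SRGN and RGS4 Panc1 replicate 1 was the highest Panc1 library, and every Panc1 library lay below every MiaPaCa2 library.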

How the data were processed

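Total RNA of each library was sequenced on the BGISEQ-500 platform. Per the labels and the series' design text, the authors trimmed the reads, aligned them to hg19 (GRCh37) and deposited 1 FPKM value per gene symbol and library. TopHat2 2.0.14 is named there for the alignment and STAR 2.5.2a for the FPKM values, and both versions also stand in the submitters' processing notes. Whether counting used strand is not stated, and FPKM values hold no read counts, so no count model could be run and precision is limited by the 3 libraries per group.

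The FPKM values were turned into log2(FPKM + 1), genes averaging 1 FPKM or more in either wild-type line were kept, and limma 3.58.1 (R 4.3.3) compared the 3 Panc1 with the 3 MiaPaCa2 wild-type libraries with a trended variance, empirical Bayes moderation and Benjamini-Hochberg adjustment over all 13248 genes. The ASAP2 knockout libraries were fitted separately in the same way. The labels do not say that replicate numbers pair libraries across the lines, so the numbers were not used as pairs. Deviations of same-numbered libraries from their line means correlated across genes at 0.06, -0.04 and -0.07. That check cannot show shared handling by number. Replicate 1 of both lines listed low levels of the other line's genes, which are different genes in each line. Positions are from GENCODE v44 lifted to GRCh37. Line-restricted genes had 5 FPKM or more in each library of 1 line and below 0.5 in each of the other.

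The lists and their members were chosen with earlier results of these data known. Genes named are core members of each list, up to 4 non-overlapping 2-fold genes at 3 FPKM or more per list and direction with the largest differences, the 15 largest differences in each direction at 10 FPKM or more, and up to 10 strictly restricted genes per line. AKT1, ALDOA, COL4A1, GCLM, HIF1A, HOXB9, IRF9, LIF, LOXL1, PPL, SLIT3, TIMP2 and WLS and the genes of the chromosomal runs were named after their values were seen. Some genes are not reported here. Other scalings, filters, pseudocounts and left-out libraries were tried as alternatives.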

Additional observations from a re-analysis of the deposited data

Results flagged for a closer look

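For 10 named genes the lines stood in opposite order, without overlap of the 3 libraries per line, in the wild-type and the ASAP2 knockout libraries. Differences are Panc1 minus MiaPaCa2 in log2(FPKM + 1), and the difference between the comparisons was not tested. Among interferon-linked genes, ISG15 changed from -1.87 in the wild-type to 1.24 in the knockout libraries, with MiaPaCa2 means of 184 and 22.8 FPKM, and DDX58, the RNA sensor RIG-I, from -1.32 to 0.76. The class I chains HLA-B and HLA-C, whose values are uncertain between near-identical genes, changed from -0.97 to 0.89 and from -0.32 to 1.64, and CD47, a signal against phagocytosis, from 0.12 to -0.42. Among structural and adhesion genes, ITGA3 changed from -0.09 to 1.13, KRT8 from -0.80 to 0.17, PLAU from -0.30 to 0.54 and VIM from -0.12 to 0.44. TUBB2B, a tubulin with a near-identical copy, changed from -2.07 to 0.80, with Panc1 means of 3.98 and 36.4 FPKM. Groups of 3 libraries are too small for a test of outlying samples.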

How the results depend on the processing

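Each of the 4 counts over all genes (higher in either line, with and without the 2-fold limit) stayed within 1.5 times of the reported count under every alternative run. Which line had more called genes changed: against 5653 for Panc1 and 5515 for MiaPaCa2, a filter of 5 FPKM gave 3928 and 4260, quantile normalization 5049 and 6040, and only genes above 0 in all 6 libraries 5240 and 5425. At 2-fold Panc1 had the larger count under every alternative run. Leaving out each library in turn gave 5433 to 5620 genes higher in Panc1 and 5318 to 5427 in MiaPaCa2, and 1983 to 2000 and 1350 to 1394 at 2-fold. Quantile normalization gave 1681 and 1637 at 2-fold, and 1 named gene changed direction with it, VIM, from -0.12 to 0.27; the cause was not tested. With the replicate block, which uses the replicate numbers as pairs although the labels do not, 5598 and 5456 genes were called and 1989 and 1366 were 2-fold. Leaving out replicate 1 of both lines, an alternative added after seeing the data, gave 2001 and 1392 at 2-fold. The median differences of the leukocyte, glycolysis, lipid uptake and oxidation, hypoxia and PI3K lists changed sign under at least 1 scaling. The read depth is unknown, so no floor can be given for genes at 0. Levels near 0 in 1 line rest on replicates 2 and 3 where replicate 1 listed low levels of the other line's genes.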
